A study of Mus musculus with 9 samples.

Results

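The laminins, nidogens and perlecan described here are 10 non-collagen genes of the basement membrane, chosen by name from 43346 genes: the laminin alpha chains Lama2, Lama3, Lama4 and Lama5, the beta chains Lamb1 and Lamb2, the gamma chain Lamc1, the nidogens Nid1 and Nid2, and the perlecan gene Hspg2. All 10 were among the 16877 genes that averaged at least 25 counts and were tested. Their RNA was read in fibroblasts sorted from the lungs of aged (72 weeks) male Col1a1-GFP mice on an FVB background, as cells carrying GFP and lacking CD31, CD45 and EpCAM. One group, aged sham (n = 4 libraries), had received intratracheal saline, and the other, aged bleo (n = 5 libraries), intratracheal bleomycin, an agent that injures and scars the lung. Cells of both groups were taken 30 days later, so that the comparison asks how fibroblasts of injured aged lungs differ from those of uninjured aged lungs. GFP in these mice follows the Col1a1 promoter, so the sort was set to leave out cells that do not use this promoter. Libraries were made from poly-A RNA and held 49921946 to 68260600 gene counts each. In bulk libraries, fewer cells of a type and less RNA per cell cannot be told apart.

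Basement membranes are thin sheets of matrix beneath epithelia and endothelia and around smooth muscle, and in the alveolar wall fibroblasts lie against them. A laminin is a trimer of an alpha, a beta and a gamma chain. The short arms of the trimers join into a network, and the alpha chain carries the globular domains that cells hold on to through integrins and dystroglycan. Nidogens bind the gamma chain encoded by Lamc1 and link the laminin network to that of type IV collagen, and perlecan, a large heparan sulfate proteoglycan, adds further links and holds growth factors.

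After bleomycin, 2 of the 10 genes were upregulated (Lama5 and Nid2) and 3 were downregulated (Lama2, Lamb2 and Nid1), where a gene counts as regulated at a false discovery rate (FDR) under 0.1 and a fold change over 1.5. The other 5 (Lama3, Lama4, Lamb1, Lamc1 and Hspg2) did not pass. Among all genes tested, 4022 (23.8%) passed in either direction, 12.3% upward and 11.5% downward. For the same 5 genes that passed, no aged bleo library overlapped an aged sham library in CPM (a count as a share of all counts of its library, scaled between libraries). This held for 32.2% of all genes tested, with 16.1% wholly above and 16.1% wholly below aged sham. The median log2 fold change was −0.28 for the 10 genes and 0.01 for all genes tested.

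**Figure D1:**
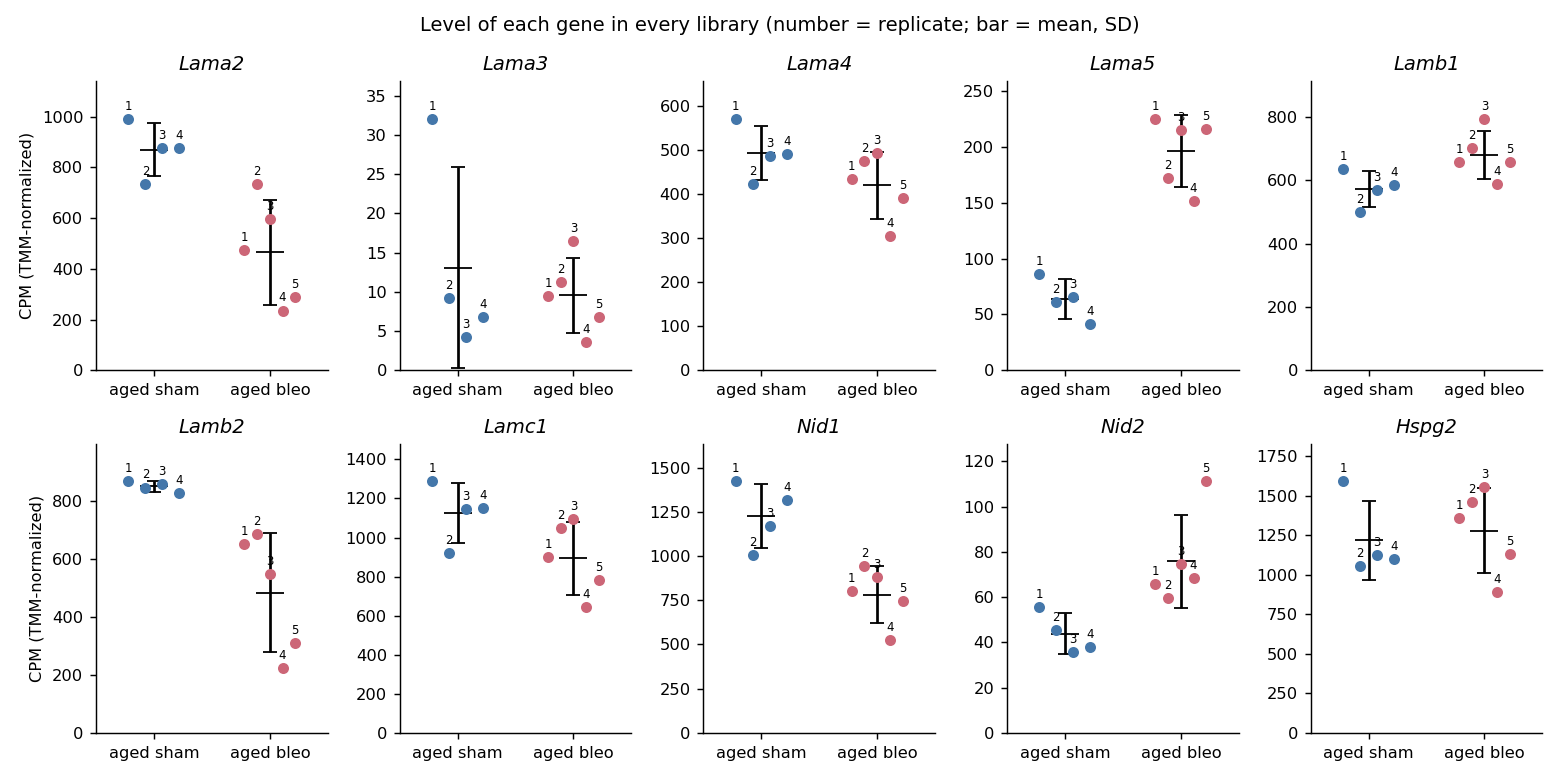
Level of each of the 10 genes (CPM, vertical axes from 0) in the 4 aged sham (blue) and 5 aged bleo (red) libraries; numbers mark replicates, and bars give the mean and SD. Aged bleo points lie wholly above aged sham for Lama5 and Nid2 and wholly below for Lama2, Lamb2 and Nid1, with aged bleo 4 and 5 lowest for Lama2 and Lamb2.

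Among the alpha chains, the fall of Lama2 and the rise of Lama5 were opposite in direction. Lama2 (ENSMUSG00000019899) encodes the alpha chain of the laminin of muscle and peripheral nerve, which fibroblasts of many tissues also make, and spans chr10:26980036-27619758 on GRCm38. Its level was 992, 737, 877 and 876 CPM in aged sham 1 to 4 and 473, 733, 597, 236 and 288 CPM in aged bleo 1 to 5. Aged bleo 2 came within a few CPM of the lowest aged sham library, while aged bleo 4 and 5 were far below. The mean went from 870.4 ± 105 CPM (SD, n = 4) to 465 ± 208 CPM (SD, n = 5), a log2 fold change of −0.90 ± 0.31 (SE) with an FDR of 0.0475 by edgeR's quasi-likelihood test. The call was lost without aged sham 1 (−0.84, FDR 0.105). With both aged bleo 4 and 5 left out, a setting chosen after the values were seen, the log2 fold change was −0.54 (FDR 0.0367), under the 1.5-fold limit.

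Lama5 (ENSMUSG00000015647, chr2:180176373-180225859) encodes the long alpha chain of the laminins found beneath most mature epithelia and endothelia. Its CPM was 86.0, 61.4, 66.1 and 41.5 in aged sham 1 to 4 and 225, 172, 215, 152 and 216 in aged bleo 1 to 5. Every aged bleo library stood well above every aged sham library, including aged bleo 4, the lowest of the injured group. The log2 fold change was 1.62 ± 0.21 (SE, FDR 0.000711), or 3.08-fold. Leaving out any 1 library kept the call, with log2 fold changes of 1.46 to 1.80, and so did leaving out aged bleo 4 and 5 together (1.67).

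The 250 bases before the transcription starts of these oppositely regulated genes are shown because the levels of both genes moved and the windows differ in composition. They are RefSeq sequences on GRCm38.p6, minus strand, 5′ to 3′, with matches to the searched motifs in capitals (Lama2, chr10:27616943-27617192, and Lama5, chr2:180225860-180226109).
Lama2: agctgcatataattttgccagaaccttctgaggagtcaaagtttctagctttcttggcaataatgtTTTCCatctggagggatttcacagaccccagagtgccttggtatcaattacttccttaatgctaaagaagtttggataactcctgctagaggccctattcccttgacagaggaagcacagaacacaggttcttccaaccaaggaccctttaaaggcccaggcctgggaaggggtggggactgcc
Lama5: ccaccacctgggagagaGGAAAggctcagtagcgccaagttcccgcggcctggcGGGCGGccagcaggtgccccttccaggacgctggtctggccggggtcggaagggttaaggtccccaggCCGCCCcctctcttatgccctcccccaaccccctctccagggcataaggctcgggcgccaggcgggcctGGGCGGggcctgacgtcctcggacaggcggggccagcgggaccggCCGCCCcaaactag
The Lama2 window holds 47.2% G and C and the Lama5 window 72.4%, against a median of 52.4% over 32851 RefSeq promoters. GGAAA, the core that NFAT factors bind, or its reverse complement TTTCC, occurs in both windows and in 55.6% of all promoters. GGGCGG, the GC box (reverse complement CCGCCC), is in the Lama5 window at 4 places, is not found in the Lama2 window and is in 32.7% of all promoters. Of the 10 genes, 6 had a RefSeq promoter in the table used (Hspg2, Lama2, Lama5, Lamb1, Lamb2 and Nid1), of which 5 held GGAAA, 4 GGGCGG and 1 the Kruppel-like factor motif CCACACCC (3.20% of all promoters). The 4 with GGGCGG were the upregulated Lama5, the downregulated Nid1 (64.4% G and C), and Hspg2 (70%) and Lamb1 (62%), which did not pass. A link between these motifs and the changes was not tested. None of the 6 held the AP-1 motif TGANTCA, the SMAD palindrome GTCTAGAC or the TATA box TATAAA, which are in 6.75%, 0.167% and 12.4% of all promoters. Both strands were searched, no matches overlapped, and the RefSeq start of Lama2 lies 2816 bases inside the gene as GENCODE M21 draws it.

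Lama4 (chr10:38965515-39110188), the alpha chain of laminins around vessels and in mesenchyme, was at 422 to 572 CPM in aged sham and 306 to 495 CPM in aged bleo. The groups overlapped, and the log2 fold change was −0.23 ± 0.15 (SE, FDR 0.258). Lama3, on chromosome 18, encodes the alpha chain of the laminin that anchors stratified and alveolar epithelium. It was low throughout, with 32.1, 9.22, 4.25 and 6.82 CPM in aged sham 1 to 4 and 3.66 to 16.5 CPM in aged bleo. Aged sham 1 set the direction of its change, because the log2 fold change was −0.46 ± 0.60 (SE, FDR 0.582) with that library and 0.49 (FDR 0.444) without it.

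The beta chains also differed from each other. Lamb2 (ENSMUSG00000052911, chr9:108479736-108490530), the beta chain of laminins at the kidney filter and the neuromuscular synapse and in vessel walls, was nearly constant in uninjured lungs, at 867, 846, 859.7 and 826 CPM in aged sham 1 to 4. In aged bleo 1 to 5 it was 652, 686, 547, 225 and 309 CPM. Every injured library was below the uninjured ones, and the injured libraries spread over a range that was many times wider. The mean fell from 849.6 ± 18.1 CPM (SD, n = 4) to 484 ± 206 CPM (SD, n = 5), with a log2 fold change of −0.81 ± 0.30 (SE) and an FDR of 0.0629. This call was the least stable of the 5: it was lost without aged sham 1, 2, 3 or 4 and without aged bleo 5, where the FDR was 0.108 to 0.124 and the log2 fold change −0.83 to −0.69. Without both aged bleo 4 and 5 the log2 fold change was −0.44 (FDR 0.00927), under the 1.5-fold limit. Lamb1 (chr12:31265234-31329644), a beta chain found in laminins of many tissues, was at 499.6 to 635 CPM in aged sham and 589.8 to 795 CPM in aged bleo. The groups overlapped, and its log2 fold change of 0.25 ± 0.11 (SE, FDR 0.110) did not pass.

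Lamc1 (chr1:153218922-153332786) encodes the gamma chain that nearly all laminins share. It was at 1287, 918, 1145 and 1150.0 CPM in aged sham 1 to 4 and 898, 1047, 1094, 646 and 782 CPM in aged bleo 1 to 5. The groups overlapped, and the log2 fold change was −0.33 ± 0.17 (SE, FDR 0.158).

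The nidogens moved in opposite directions. Nid1 (ENSMUSG00000005397, chr13:13437602-13512275), the nidogen of most basement membranes, was at 1422, 1007, 1168 and 1315 CPM in aged sham 1 to 4 and 805, 947, 881, 525 and 748 CPM in aged bleo 1 to 5. All injured libraries were lower, with a log2 fold change of −0.65 ± 0.18 (SE, FDR 0.0201). The change was close to the 1.5-fold limit and fell under it without aged sham 1 (−0.58), without aged bleo 4 (−0.55) and without both aged bleo 4 and 5 (−0.49). Nid2 (ENSMUSG00000021806, chr14:19751257-19811787), its paralogue, was at 55.7, 45.7, 35.9 and 37.8 CPM in aged sham 1 to 4 and 65.7, 59.5, 74.4, 68.4 and 111 CPM in aged bleo 1 to 5. All injured libraries were higher, aged bleo 5 most of all, and the log2 fold change was 0.79 ± 0.20 (SE, FDR 0.0156). It was 0.62 to 0.93 when any 1 library was left out, and the call was kept each time. Of the exon bases of Nid2, 437 (8.45%) are also exon of Rtraf on the opposite strand, whose log2 fold change was 0.53 ± 0.20 (SE, FDR 0.0647). The strand setting of the counting is not given in the sources used here, so reads of these bases cannot be assigned to 1 of the genes.

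Hspg2 (ENSMUSG00000028763, chr4:137468769-137570630), which encodes the perlecan core protein, was at 1591, 1053, 1125 and 1100.1 CPM in aged sham 1 to 4 and 1357, 1462, 1553, 894 and 1134 CPM in aged bleo 1 to 5. Both groups covered much the same range. The log2 fold change was 0.07 ± 0.19 (SE, FDR 0.797), with a 95% interval of −0.36 to 0.50.

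**Figure D2:**
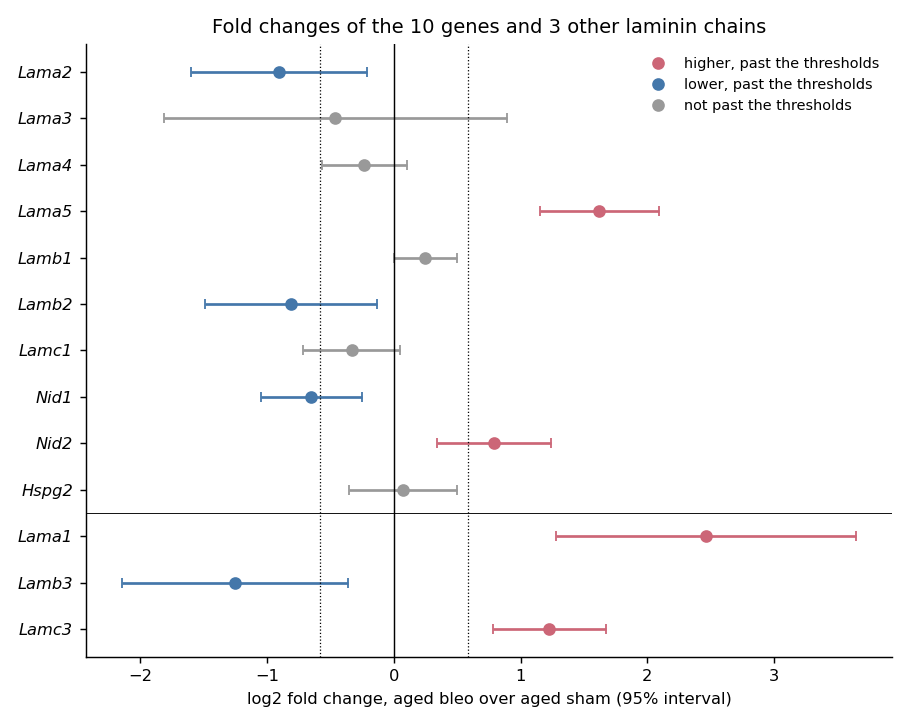
Log2 fold change of aged bleo over aged sham (points) with its 95% interval (lines) for the 10 genes and, under the horizontal line, 3 other laminin chains; dotted lines mark the 1.5-fold limit. Lama5 (1.62) and Nid2 (0.79) lie to the right and Lama2 (−0.90), Lamb2 (−0.81) and Nid1 (−0.65) to the left, and the interval of Lama3 is the widest of the 10.

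Of the other laminin chains, Lama1, Lamb3 and Lamc3 were present at low levels and passed. Lama1, an alpha chain mainly of the embryo, was at 0.273 to 1.11 CPM in aged sham and 1.39 to 3.70 CPM in aged bleo (log2 fold change 2.46 ± 0.53 SE, FDR 0.00778). Lamc3, a gamma chain of a few tissues, rose from 29.5 ± 4.10 CPM (SD, n = 4) to 68.9 ± 18.5 CPM (SD, n = 5), with a log2 fold change of 1.23 ± 0.20 (SE, FDR 0.00227). Of its exon bases, 382 are also exon of the antisense gene Gm13441 (log2 fold change 1.55), and with the strand setting not given, reads of these bases cannot be assigned to 1 of the 2 genes. Lamb3, which encodes the beta chain that joins the Lama3 chain in epithelial anchoring laminin, fell from 7.13 ± 2.75 CPM (SD, n = 4) to 2.98 ± 1.63 CPM (SD, n = 5), a log2 fold change of −1.25 ± 0.40 (SE, FDR 0.0358), with overlapping groups.

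Levels of different genes were compared as the deposited FPKM values, which count fragments against gene length and library total. Gene length here is that of all annotated exons of a gene, which can exceed that of a single transcript. It was 16338 bases for Lama2, 12068 for Lama4 and 11388 for Lama5. The order of genes and the shares between them depend on these lengths. In aged sham, Nid1 had the highest mean level (85.1 ± 11.7 FPKM, SD, n = 4), followed by Lamb2 (58.6), Lamc1 (57.0), Hspg2 (35.7), Lamb1 (24.2), Lama2 (22.3), Lama4 (17.1), Nid2 (3.76), Lama5 (2.35) and Lama3 (0.511). In that order the ranges over libraries overlapped between the neighbours Lamb2 and Lamc1, Lamb1 and Lama2, Lama2 and Lama4, and Nid2 and Lama5, and were separate for the other neighbours. In aged bleo the order of the means was Nid1 (55.3 ± 10.2 FPKM, SD, n = 5), Lamc1 (46.3), Hspg2 (38.3), Lamb2 (34.0), Lamb1 (29.5), Lama4 (14.9), Lama2 (12.1), Lama5 (7.40), Nid2 (6.68) and Lama3 (0.378). There the neighbours had separate ranges at only 2 places, between Lamb1 and Lama4 and between Nid2 and Lama3. By FPKM, Lama2 was thus above Lama4 in all 4 aged sham libraries, and Lama4 was above Lama2 in 4 of 5 aged bleo libraries. By count, Lama4 was above Lama2 only in aged bleo 4 (22410 against 17262) and aged bleo 5 (21331 against 15749).

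The make-up of the alpha chain transcripts differed between the groups, with less Lama2 and more Lama5 after bleomycin. Lama2 made up 51.1, 52.2, 53.5 and 54.3% of the summed alpha chain FPKM in aged sham 1 to 4 and 33.7, 44.6, 37.2, 26.8 and 25.2% in aged bleo 1 to 5. Lama5 made up 3.70 to 6.36% in aged sham and 15.0 to 27.1% in aged bleo, a mean of 5.52 ± 1.24% (SD, n = 4) against 21.8 ± 4.78% (SD, n = 5). Neither share overlapped between the groups (each p = 0.0159 by an exact permutation test, two-sided, the smallest p that 4 against 5 libraries allow; p = 0.0265 adjusted over 15 ratios and shares). Lama4 had a share of 40.5 ± 0.584% (SD, n = 4) and 43.2 ± 3.36% (SD, n = 5), a difference that did not pass (exact permutation p = 0.175, adjusted 0.238). Lama1 went from 0.0476% to 0.375% of the alpha chains (adjusted exact permutation p = 0.0265), and Lama3 was 1.14% and 1.03% (adjusted 0.841). The log2 ratio of all alpha chains to Lamc1 was −0.43 ± 0.06 (SD, n = 4) in aged sham and −0.41 ± 0.08 (SD, n = 5) in aged bleo, and did not differ beyond the spread (exact permutation p = 0.810, adjusted 0.841).

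**Figure D3:**
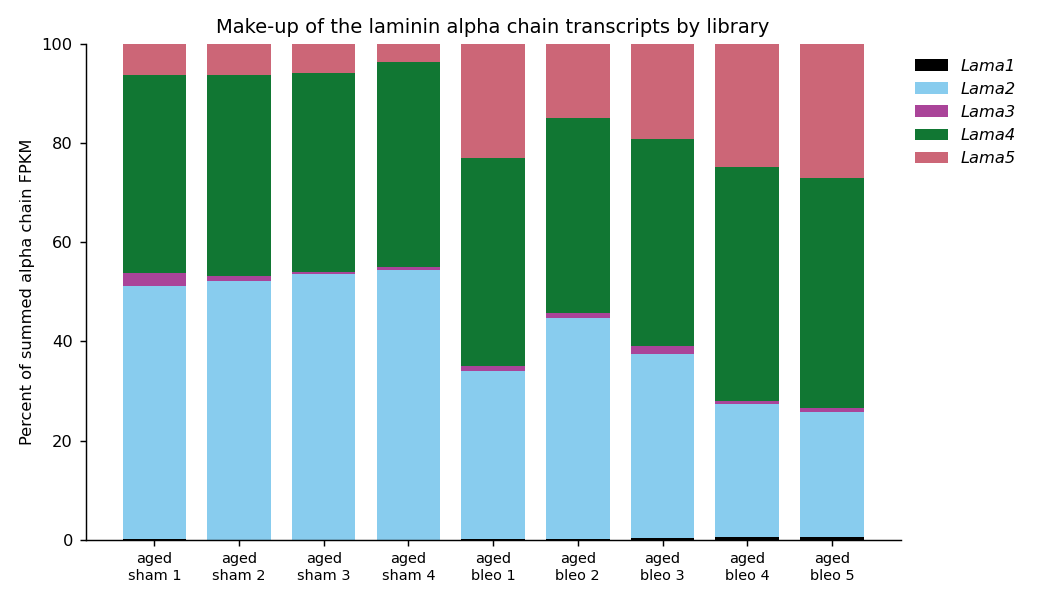
Percent of the summed FPKM of the 5 laminin alpha chains (vertical axis, 0 to 100) that each chain takes in every library, 1 bar per library. Lama5 takes 3.70 to 6.36% in the 4 aged sham bars and 15.0 to 27.1% in the 5 aged bleo bars, where the share of Lama2 is smaller.

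Ratios within a library, which do not depend on how libraries are scaled, showed unequal change between the chains. The log2 ratio of Lama5 to Lama2 was −3.88 to −3.01 in aged sham and −1.57 to 0.10 in aged bleo, higher by 2.67. In aged bleo 5 the FPKM of Lama5 exceeded that of Lama2, but its count did not (11796 against 15749). Lamb1 to Lamb2 went from −1.28 ± 0.14 (SD, n = 4) to −0.09 ± 0.62 (SD, n = 5), with the FPKM of Lamb1 above that of Lamb2 in aged bleo 4 and 5 alone. The gene lengths used were 9917 bases for Lamb1 and 6082 for Lamb2. By count, Lamb1 was above Lamb2 in every aged bleo library, by least in aged bleo 1 (35315 against 35027). Nid1 to Nid2 went from 4.51 ± 0.31 (SD, n = 4) to 3.07 ± 0.51 (SD, n = 5), so that Nid1 remained the more abundant nidogen in every library. Lama4 to Lama2 (higher by 0.78 in aged bleo), Lama4 to Lama5 (−1.90) and Hspg2 to Lamc1 (higher by 0.41) also had groups that did not overlap. Each of these 6 log2 ratios had an exact permutation p of 0.0159 and an adjusted p of 0.0265. For Lama5 to Lama2 and Nid1 to Nid2, separate groups followed from the single genes, which lay wholly above or wholly below aged sham. Ratios and shares that contain the same gene are not independent results. The summed nidogens to Lamc1 differed by a log2 ratio of −0.21 with overlapping groups (exact permutation p = 0.0317, adjusted 0.0476), and passed in only 1 of the 9 settings that leave out a library, that without aged bleo 5. The summed beta chains to Lamc1 were 0.56 ± 0.15 (SD, n = 4) and 0.44 ± 0.16 (SD, n = 5; exact permutation p = 0.333, adjusted 0.385), and Lama3 to Lama2 did not pass either (adjusted exact permutation p = 0.238).

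**Figure D4:**
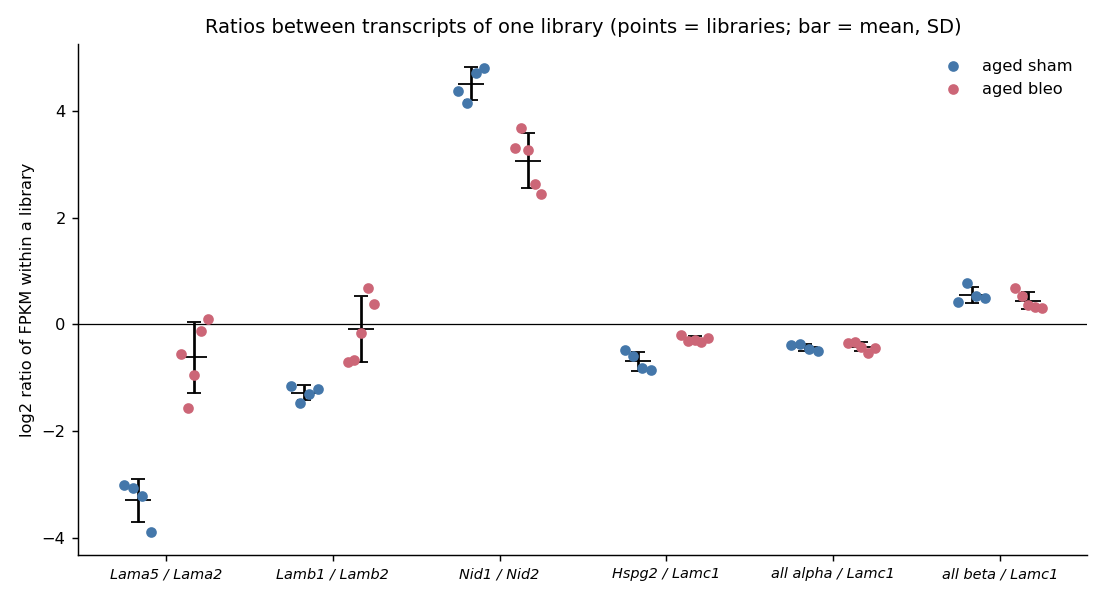
Log2 ratio of FPKM between transcripts of the same library (vertical axis; points are the 4 aged sham and 5 aged bleo libraries, bars the mean and SD) for 6 ratios. Lama5 to Lama2, Lamb1 to Lamb2, Nid1 to Nid2 and Hspg2 to Lamc1 have separate groups, and the summed alpha and summed beta chains to Lamc1 overlap.

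Within the groups, most of the 10 genes varied together from library to library. After removal of the group means, the Pearson correlation of log2 CPM over the 9 libraries was above 0 for 40 of 45 pairs, with a median of 0.69 and a range of −0.39 to 0.98. These points share libraries and their RNA composition, and no value for pairs of other genes is given here for comparison. All 5 negative pairs contained Nid2, the lowest with Lamb2. Among all genes tested, the gene most like Lamc1 by this measure was Lama4 (0.98), followed by Ap3b1 and Zfp551 (both 0.98). The 3 genes most like Lama2 were Dennd5a (0.995), Trio (0.995) and Zfp592 (0.992), and those most like Lama5 were Plxnb1, Rad54l2 and Mras (each 0.98). Nid1 was nearest to Gm27209 (0.996), Mpp5 (0.984) and Exoc6b (0.984), and Hspg2 to Trim56 (0.986), Usp53 (0.982) and Trerf1 (0.981).

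Of the type IV collagen chains, to whose network nidogens connect that of the laminins, Col4a1 and Col4a2 rose, as Lama5 and Nid2 did, while Col4a3 and Col4a4 fell. Of the 8 basement membrane collagen genes, 4 were upregulated, 2 were downregulated and 2 did not pass, with a median log2 fold change of 0.35. Col4a1 and Col4a2, which form the widespread type IV trimer, went from 848 ± 98.2 to 2271 ± 356 CPM (SD, log2 fold change 1.42, FDR 0.000239) and from 419.5 ± 53.1 to 1426 ± 229 CPM (SD, 1.77, FDR 7.96e-05), with n = 4 and n = 5 in edgeR's test. Col4a3 and Col4a4, chains of the specialised trimer of the alveolus and kidney filter, changed by log2 fold changes of −1.42 (FDR 0.0262) and −1.41 (FDR 0.0177).

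Among 20 other basement membrane and linker genes, 18 were tested, of which 6 were upregulated, 7 were downregulated and 5 did not pass. Sparc, a collagen-binding glycoprotein, had a log2 fold change of 1.72 (FDR 0.000111) and Frem1, a matrix protein of embryonic epithelia, one of 1.70 (FDR 0.00140). Papln, a papilin of basement membranes, changed by −1.65 (FDR 0.00855), and Fbln1, a fibulin that binds nidogen and laminin, by −1.42 (FDR 0.0317). Fbln1 had the library pattern of Lama2 and Lamb2, at 2382 to 2683 CPM in aged sham and 339 to 1555 CPM in aged bleo, lowest in aged bleo 4 and 5. The pattern was not particular to it. Aged bleo 4 and 5 were also lowest for other downregulated genes, such as Dcn (1421 and 1686 CPM) and Tek (9.51 and 12.4 CPM).

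Of the 8 receptor genes for laminin, which are integrin subunits and Bcam, 2 were upregulated, 1 was downregulated and 5 did not pass. Itgb1, the beta subunit common to most laminin-binding integrins, rose from 773 ± 30.8 CPM (SD, n = 4) to 1393 ± 257 CPM (SD, n = 5), with a log2 fold change of 0.85 (FDR 0.00260). Itga1, the alpha subunit of a receptor for collagen IV and laminin, rose by a log2 fold change of 1.49 (FDR 0.00133). Bcam, a receptor that binds the Lama5 chain, fell by 0.74 on the log2 scale (FDR 0.0491), with overlapping groups. The Bcam call was lost without aged sham 2, without aged sham 3 and without aged bleo 5 (FDR up to 0.128), and no receptor gene was then downregulated. The 22 genes of the dystroglycan complex and of the enzymes that attach its sugars held no upregulated gene, 5 downregulated genes and 17 that did not pass. The 5 became 2 without aged sham 2, aged bleo 4 or aged bleo 5, 3 without aged sham 3, and 1 by limma on log2(FPKM + 1). Dag1, which encodes dystroglycan itself, had nearly equal means of 362 ± 21.1 CPM (SD, n = 4) without injury and 358 ± 71.4 CPM (SD, n = 5) with it (log2 fold change −0.02, FDR 0.942). The syntrophin Sntb1, which binds the inner side of the complex, was among the 5, with a log2 fold change of −0.78 (FDR 0.00452).

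Of 15 genes whose products cleave basement membrane proteins or trim heparan sulfate, 13 were tested, of which 1 was upregulated, 4 were downregulated and 8 did not pass. Mmp14, a protease of the cell surface, had a log2 fold change of 1.31 (FDR 0.000213). Adamts5, a protease of proteoglycans, changed by −1.23 (FDR 0.00646), and Sulf2, which removes sulfate from heparan sulfate chains such as those of perlecan, by −1.11 (FDR 0.00766).

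**Figure D5:**
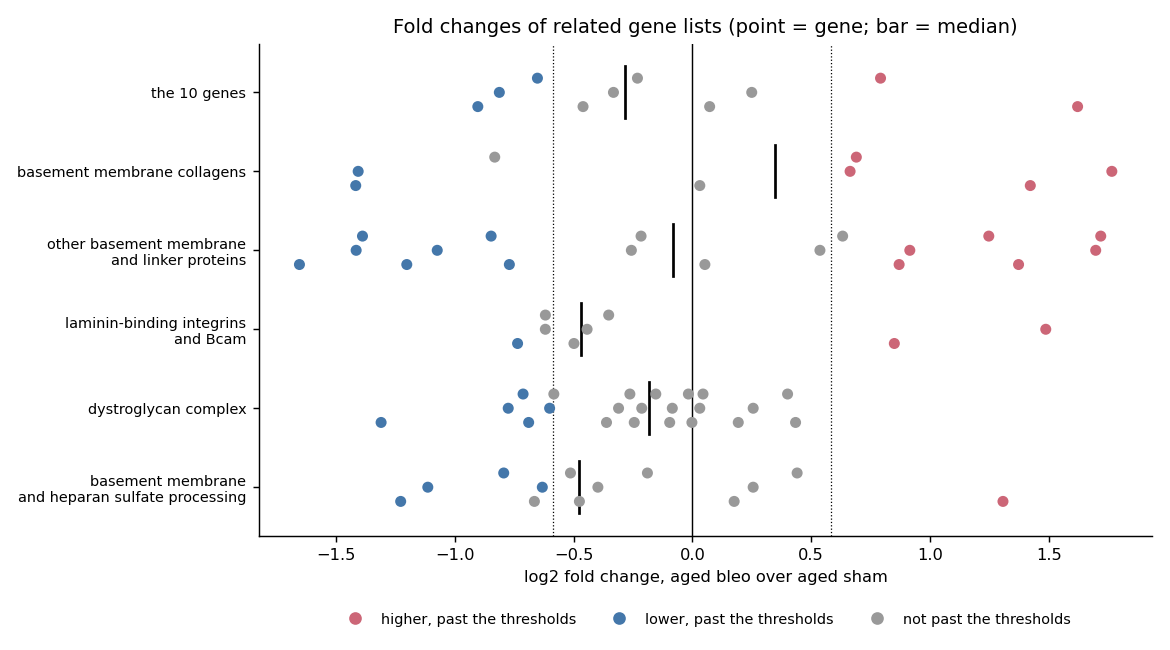
Log2 fold change of aged bleo over aged sham for each tested gene of the 10 genes and of 5 lists of related genes; each point is a gene, vertical bars are list medians and dotted lines mark the 1.5-fold limit. The 8 basement membrane collagens have a median of 0.35 and the 10 genes one of −0.28, and every list except the dystroglycan complex has genes passing in both directions.

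The sorted cells carried Col1a1, the gene behind the GFP label, but RNA of Ptprc, which encodes the gated-out CD45, was present too. Ptprc averaged 87.0 ± 59.1 CPM (SD, n = 4) in aged sham and 65.0 ± 66.3 CPM (SD, n = 5) in aged bleo. Col1a1 averaged 4154 ± 407 CPM (SD, n = 4) in uninjured and 20853 ± 4970.3 CPM (SD, n = 5) in injured lungs (log2 fold change 2.33). Of 12 fibroblast identity genes 6 were upregulated (also Col3a1, 1.60), 4 were downregulated (among them Dcn, −1.54, and Pi16, −1.51) and 2 did not pass. Defining markers of the cells that were gated out or that make laminins of their own were low for epithelium (Epcam, 0.593 and 0.668 CPM in the 2 groups), endothelium (Pecam1, 6.12 and 4.34), Schwann cells (Sox10, 0.697 and 0.480) and mesothelium (Msln, 7.76 and 13.2). Other markers of the same cells moved (levels as mean ± SD over 4 and 5 libraries, with log2 fold changes). The alveolar epithelial genes Ager (19.8 ± 11.6 to 1.98 ± 0.535 CPM, log2 fold change −3.32) and Cldn18 (−2.59) were lower in aged bleo, and the keratin Krt8 was higher (1.12). The endothelial receptor Tek was lower (161 ± 12.9 to 28.9 ± 18.8 CPM, −2.48), and Kdr (0.61) and Egfl7 (0.88) were higher. The glial gene S100b was higher (0.718 ± 0.0764 to 7.37 ± 1.83 CPM, 3.35), the myelin gene Mbp (−1.02) and the receptor Erbb3 (−0.94) were lower, and so was the mesothelial gene Rspo1 (−1.48). Smooth muscle Myh11 was at 1377 and 617 CPM (FDR 0.0412) and Cnn1 had a log2 fold change of −0.96. The pericyte gene Cspg4 was at 101 and 140.5 CPM and did not pass (log2 fold change 0.47, under the 1.5-fold limit, FDR 0.0746). Of the other pericyte genes, Trpc6 (4.09) and Higd1b (2.67) were higher, and Abcc9 (−1.24) and Kcnj8 (−0.88) were lower.

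No marker gene of any list was at 0 in every library. The summed levels of the lists in aged sham and aged bleo, in CPM, were 32.5 to 132 and 29.8 to 79.1 for 14 epithelial genes (1 up, 4 down), and 257 to 303 and 90.8 to 145 for 12 endothelial genes, of which 10 were tested (2 up, 1 down). They were 3109 to 6335 and 2273 to 3428 for 8 smooth muscle genes (none up, 3 down), 875 to 1076 and 377 to 925 for 8 pericyte genes (4 up, 2 down), and 44.0 to 62.7 and at most 39.1 for 8 Schwann cell genes (1 up, 2 down). For 8 mesothelial genes they were 61.4 to 115 and 41.2 to 142 (1 down), and for 8 muscle genes, of which 6 were tested, 79.0 to 114 and 44.1 to 188 (1 down). With 1 library left out, counts of some lists moved by over 1.5 times. The upregulated epithelial genes were 2 without aged bleo 1 and 4 without aged sham 3. For the endothelial list, 0 genes were upregulated without aged sham 2 and 1 without aged sham 1, aged sham 3, aged bleo 3, aged bleo 4 or aged bleo 5, and the downregulated genes were 2 without aged sham 1 and 4 without aged bleo 4. The downregulated genes were 1 for smooth muscle without aged sham 3, and 1 for pericytes without aged sham 2, aged sham 3 or aged bleo 5. The upregulated mesothelial genes were 2 without aged sham 1 and 1 without aged bleo 4. The muscle list ranged over 0 to 1 upregulated and 0 to 2 downregulated genes. The part of these cells in the changes of the 10 genes was not tested.

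The libraries with the lowest Lama2, Lamb2 and Nid1 also differed in other RNA. The summed level of 11 leukocyte and macrophage genes (5 up, none down) was 232 to 627 CPM in aged sham and 528 to 932 CPM in aged bleo 1, 2, 3 and 5, against 1939.7 CPM in aged bleo 4. Lyz2 (log2 fold change 2.42) and Emr1 (1.61) were among the 5. Without aged bleo 4 the list had 4 upregulated and 3 downregulated genes, without aged sham 3 it had 3 and none, and without both aged bleo 4 and 5 it had 3 and 2, with a median log2 fold change of −0.11 against 0.96 over all libraries. In aged bleo 4, Ptprc, which encodes CD45, was at 183 CPM. In the other aged bleo libraries Ptprc was at 30.6 to 43.6 CPM and in aged sham at 42.3 to 169 CPM. When aged bleo 4 was left out, Lama2 had a log2 fold change of −0.74 (FDR 0.0505) and Lamb2 one of −0.64 (FDR 0.0519). The 8 immediate early genes, which rise when cells are stressed or dissociated, were all downregulated, with a summed level of 15622 to 20442 CPM in aged sham and 5391 to 12268 CPM in aged bleo, lowest in aged bleo 4 and 5. Of 3 RNAs that stay in the nucleus, 2 were downregulated (Meg3, −1.81, and Neat1, −0.72), with summed levels of 2344 to 2927 and 2037 to 2669 CPM. The part of these differences in the changes of the 10 genes was not tested.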

How the data were processed

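RNA from sorted Col1a1-GFP+ lung fibroblasts was sequenced in 9 libraries, 4 aged sham and 5 aged bleo, grouped by their labels. Per the submitters' processing notes, reads were aligned with STAR 2.5.2b to mm10 (GRCm38) and counted per gene with featureCounts of Subread. The authors deposited raw counts per gene, and FPKM values normalized by the exon length of each gene and by a library total 2.27 to 2.42 times the summed gene counts. All 37 mitochondrial genes were listed at 0, so their share could not be used as a measure of RNA quality. The 10 genes and all gene lists were chosen with earlier results of these data known.

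Counts were tested with edgeR 4.0.16 (TMM scaling, quasi-likelihood fit, Benjamini-Hochberg FDR over 16877 genes averaging at least 25 counts, R 4.3.3), with the filter and thresholds of the study (FDR under 0.1, fold change over 1.5). The steps were checked on simulated counts. CPM used TMM-scaled totals, and 3 counts corresponded to 0.0409 to 0.0605 CPM. Ratios and alpha chain shares (Lama1 to Lama5) were taken from FPKM and compared by exact permutation tests over libraries (scipy 1.17.1), adjusted over 15. Named were the 10 genes, other laminin chains, of every other list up to 2 genes with the largest and 2 with the smallest log2 fold change among those that passed at 1 CPM or more, Itgb1, Dag1, the defining markers, and the 3 genes most correlated with Lama2, Lama5, Lamc1, Nid1 and Hspg2. Some genes that this rule names are not reported here. The labels do not say how many mice gave each library, so p-values measure the spread between libraries. The 95% intervals of log2 fold changes come from the SE of edgeR's quasi-likelihood fit and so include the spread between libraries. None of the 9 libraries duplicated another. The groups share replicate numbers, but the deviations of same-numbered libraries correlated at 0.09, 0.06, −0.13 and 0.33, so the numbers were not taken as pairs. Alternatives were RLE scaling, library size alone, DESeq2 1.42.0, limma 3.58.1 on log2 CPM and on log2 FPKM plus 0.1 or 1, a minimum of 10 counts per library, a robust fit, no filter, an FDR under 0.05 with a fold change over 2, leaving out each library, a replicate block, ratios from counts or with 0.1 FPKM added, and, chosen after the data were seen, leaving out aged bleo 4 and 5 and the unblocked fit of the 8 numbered-alike libraries. Gene positions are on GRCm38. Of gene IDs shared with GENCODE M21, 78.9% had the same position.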

Additional observations from a re-analysis of the deposited data

Results flagged for a closer look

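A library is listed here where its gap to the nearest library of its group was a larger part of that group's range than Dixon's 95% limit. Of 156 groups of values tested, 9 passed, and chance gives about 5 percent. Among the genes described, Nid2 was at 111 CPM in aged bleo 5, against 74.4 CPM in the nearest aged bleo library, and without that library Nid2 remained upregulated (log2 fold change 0.62). Hspg2 was at 1591 CPM in aged sham 1, against 1125 CPM in the nearest aged sham library, and its log2 fold change without that library was 0.23 (FDR 0.384). Lama1 was at 1.11 CPM in aged sham 1 and at 0.273 to 0.282 CPM in the other aged sham libraries, so that its share of the alpha chains stood apart there as well (0.0986%, against 0.0333% in the nearest).

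Among related genes, Sulf2 was at 313 CPM in aged sham 2, below the others (335 CPM nearest). Ptprc was at 183 CPM in aged bleo 4 (43.6 CPM nearest). The pericyte genes Higd1b, at 4.10 CPM in aged bleo 5 (1.85 CPM nearest), and Kcnj8, at 108 CPM in aged sham 3 (93.6 CPM nearest), and the myelin gene Mbp, at 51.5 CPM in aged sham 4 (35.4 CPM nearest), also stood apart.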

How the results depend on the processing

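Of the 10 genes, 2 were upregulated under every setting except the stricter limits (FDR under 0.05, fold change over 2), where 1 was (Lama5) and none was downregulated. The 3 downregulated genes were 3 under the other planned settings, 0 to 3 when 1 library was left out, and 0 with both aged bleo 4 and 5 left out, an alternative added after the data were seen. The cause was not tested. All genes called numbered 4022, 1785 by limma on log2(FPKM + 1), 2158 under the stricter limits, and 3525 to 4597 when 1 library was left out. With the replicate number as a block, over the 8 libraries that share numbers, 3539 genes and 2 upregulated and 3 downregulated members were called. The same 8 libraries without the block gave 3530, 2 and 2, Lamb2 being lost (FDR 0.123). Against the fit of all 9 libraries, the block changed no call of the 10 genes.

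Leaving out 1 library, the bleo-minus-sham difference was 0.99 to 1.34 for the log2 ratio of Lamb1 to Lamb2, −1.60 to −1.29 for Nid1 to Nid2, 0.66 to 0.92 for Lama4 to Lama2, 2.48 to 2.91 for Lama5 to Lama2, −1.99 to −1.70 for Lama4 to Lama5, 0.36 to 0.48 for Hspg2 to Lamc1, 0.44 to 1.35 for Lama3 to Lama2, −0.26 to −0.18 for the nidogens and −0.17 to −0.04 for the beta chains to Lamc1. In percentage points of the alpha chains it was −22.1 to −17.2 for Lama2, 15.0 to 18.0 for Lama5, 1.76 to 3.75 for Lama4, 0.284 to 0.386 for Lama1 and −0.350 to 0.356 for Lama3. With 1 aged sham library left out, the adjusted p of the 9 ratios and shares without overlap was 0.0536 to 0.0595, where 3 against 5 libraries allow fewer small p-values, and with 1 aged bleo library left out it was 0.0429 to 0.0476. The Lama4 share passed only without aged bleo 2 (adjusted exact permutation p = 0.0429).

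The direction turned for the alpha chains over Lamc1 (−0.0855 with ratios of counts, −0.0090 to 0.0447 leaving out 1 library) and for the beta chains over Lamc1 (0.0270 with ratios of counts). It also turned for the Lama3 share (0.356) and Lama3 (0.49, range −0.75 to 0.49) without aged sham 1, and for Hspg2 without aged bleo 3 (−0.0054, range −0.0054 to 0.227). Dag1 (range −0.0738 to 0.0832) turned without aged sham 1, aged bleo 4, aged bleo 5 or the last 2 together (0.157), and in the unblocked 8 libraries (0.0135). Epcam turned without aged bleo 4 (−0.154, range up to 0.367) or both aged bleo 4 and 5 (−0.249), and Ptprc without aged sham 4 (0.120, range from −1.30). None of these had passed. Of the other laminin chains, Lama1 and Lamb3 fell under the 1.5-fold limit by limma on log2(FPKM + 1), whose added value exceeds their levels. Depth was not limiting for the 10 genes, the lowest of which, Lama3, had 218 counts or more in every library.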

Other observations

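Aged sham 1, the library that set the direction of Lama3, was also the highest library for the integrin subunits of epithelial anchoring. Itga6, Itgb4, Wt1 and Sftpc were chosen after the Lama3 values were seen. Itga6 was at 21.9 CPM in aged sham 1 and at 1.60 to 8.62 CPM in the other 8 libraries. Itgb4 was at 14.8 CPM there and at 2.58 to 5.53 CPM in the others. Lamb3, a partner chain of Lama3, was highest there too (9.69 CPM), but close to aged sham 4 (9.32 CPM). Lama1 and the mesothelial gene Wt1 were also highest in this library, at 1.11 CPM among the aged sham libraries and at 38.8 CPM among all 9 libraries (31.0 CPM in aged bleo 3, the next highest). The surfactant gene Sftpc of alveolar epithelium was at 3.18 CPM there, against 3.08 to 57.9 CPM in the other aged sham libraries.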
